A study of Mus musculus with 6 samples.

Results

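The genes described here are the semaphorins and their plexin and neuropilin receptors in murine long bone mesenchymal stem cells (MSCs). They were chosen by gene symbol alone, which gave 31 of the 17457 genes in the expression table, comprising 20 semaphorins, 9 plexins and 2 neuropilins. RNA was sequenced from 6 samples of wild-type C57BL/6J female mice aged 10 weeks. Primary MSCs (2 libraries) were sorted directly from collagenase-digested tibias and femurs as cells lacking CD45, Ter119 and CD31 and carrying Sca-1 and PDGFRα, and each library pooled several mice. Cultured MSCs (4 libraries, each from a pair of mice) were sorted with the same antibodies after the mixed bone digest had been grown for 10 days in MesenCult medium with MesenPure, for a single passage. Since the mixed cells were cultured before the sort, the groups may differ in which cells they hold as well as in what each cell expresses, and in bulk RNA fewer cells of a type cannot be told apart from less RNA per cell.

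Semaphorins are guidance proteins that share a sema domain and steer migrating axons, vessels and mesenchymal cells. Class 3 semaphorins are secreted, those of classes 4, 5 and 6 span the membrane and class 7 is anchored by a lipid. Plexins are the signalling receptors, whose cytoplasmic part inactivates small GTPases, and most class 3 semaphorins reach A-type plexins only together with a neuropilin, which binds the ligand and also binds vascular endothelial growth factors (VEGFs). In mouse bone, Sema3A from the osteoblast lineage is known to restrain osteoclasts, and Sema4D from osteoclasts to restrain osteoblasts through plexin B1.

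The sort markers were present in all libraries, with Ly6a (Sca-1) at 1056 to 1711 FPKM and Pdgfra at 35.48 to 72.65 FPKM (a fragment count corrected for transcript length and sequencing depth), while Ptprc (CD45) and Pecam1 (CD31) stayed at or below 0.62 FPKM. The FPKM values of a library summed to between 559601 and 642497, and how many reads a given value rests on is unknown. Several marker lists of other cells moved with the groups. The summed FPKM of 14 macrophage markers was 106 to 335 in cultured and 33.7 to 34.3 in primary MSCs, with 11 of the 12 tested markers higher in culture and Ptprc itself at 0.12 to 0.47 in cultured MSCs. The sum of 7 osteoblast and osteocyte markers was 33.7 to 42.3 in cultured and 642 to 1410 in primary MSCs, with all 5 tested markers lower. That of 8 chondrocyte markers was 984 to 1525 in cultured and 3875 to 5430 in primary MSCs, with 4 of 7 tested markers lower and 1 higher. In primary MSCs the chondrocyte sum was mainly Comp, at 3574 and 5310 FPKM, against 561 to 735 in cultured MSCs. Col2a1 went the other way, at 171 and 38.0 FPKM in primary and 331 to 723 in cultured MSCs. Osteoclast markers, mainly the protease Ctsk, summed to 259 to 288 in cultured and 643 to 820 in primary MSCs, with the 3 tested lower, and pericyte and smooth muscle markers to 27.4 to 46.0 and 50.8 to 61.0, with 1 of 2 tested lower. Schwann cell sums overlapped (9.34 to 18.1 and 11.7 to 23.4), and lymphocyte sums were at most 0.58. Endothelial markers gave overlapping sums, at 25.8 to 34.1 in cultured and 26.7 to 40.7 in primary MSCs, mostly from Eng at 22.69 to 34.36 FPKM. Of 3 tested endothelial markers 1 fell, the angiopoietin receptor Tek (log2 fold change -4.49, adjusted p = 0.000153), and the endothelial cadherin Cdh5 did not pass 0.05 FPKM in any library. The part of these cells in the changes below was not tested.

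Summed FPKM was higher for the receptors and lower for the ligands in cultured than in primary MSCs. The summed FPKM of the 11 plexins and neuropilins was 46.9 and 63.4 in primary MSCs and 125 to 149 in cultured libraries, a mean of 55.2 ± 11.7 (SD, n = 2) against 138 ± 9.73 (SD, n = 4). The summed FPKM of the 20 semaphorins was 127 and 118 in primary MSCs and 103 to 112 in cultured libraries, a mean of 122 ± 6.29 (SD, n = 2) against 106 ± 4.47 (SD, n = 4). The difference of the semaphorin sums was -16.0 as FPKM, but -49.0 with median ratio scaling and -45.6 as TPM, and that of the receptor sums was 82.5, 59.2 and 123. Every library has a higher total in TPM than in FPKM, so the sizes of differences in TPM and FPKM cannot be compared. Neither FPKM sum overlapped between the groups, and each gave p = 0.0667 in a two-sided exact permutation test, the smallest p that 4 libraries against 2 allow. Receptor FPKM was 0.371 and 0.539 times semaphorin FPKM in the primary libraries and 1.22 to 1.45 times in the cultured libraries.

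Of the 31 genes, 16 reached 1 FPKM in at least 2 libraries and were tested, as part of 11405 genes, with limma on log2(FPKM + 0.1). On this scale 7 rose in cultured MSCs (Benjamini-Hochberg adjusted p under 0.05), 5 fell and 4 did not pass the test. Of all genes tested, 48.1% rose and 17.6% fell. With median ratio scaling 6 rose and 7 fell, beside 30.9% and 27.4% of all genes. Among the 7 tested receptors 5 rose and 1 fell, and among the 9 tested semaphorins 2 rose and 4 fell. The median log2 fold change was 1.02 for the receptors and -0.49 for the semaphorins, beside 0.45 for all genes. Sema3d, Sema4f and Plxnd1 reached 1 FPKM in the primary libraries only, so passing the minimum itself selected them for a difference, and the counts are descriptive. At the stricter limits of the study's methods, 0.01 for the adjusted p and 2 for the size of the log2 fold change, Nrp2 was higher (8.36% of all genes were) and Sema3d, Sema3e and Sema4f were lower (5.95% of all genes were).

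**Figure D1:**
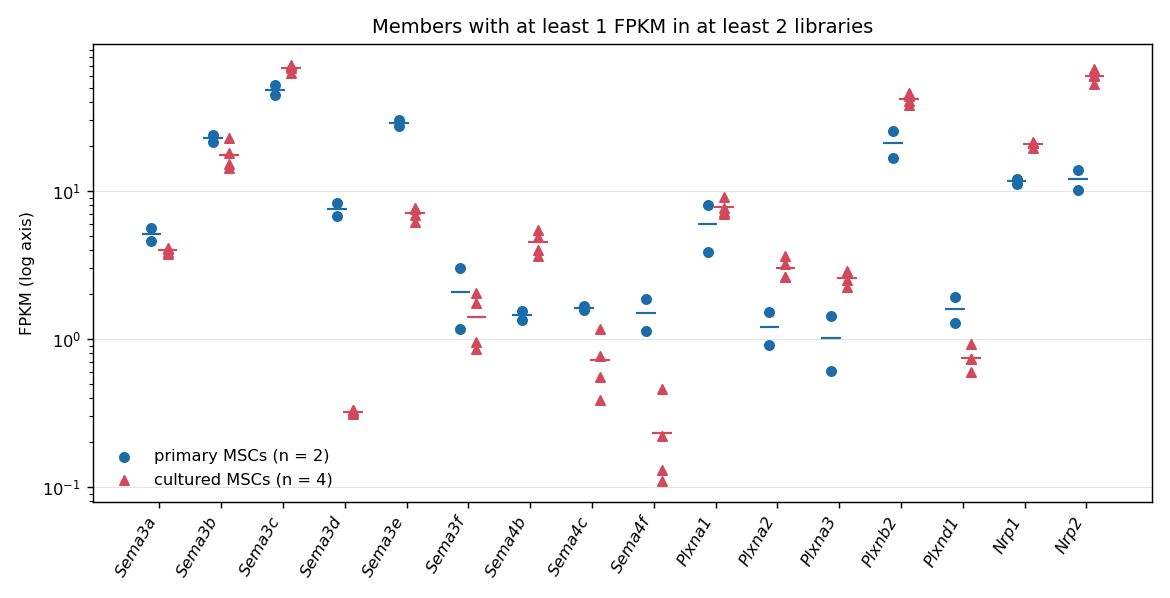
FPKM on a log axis for the 16 tested genes, with a point for each primary (circles, n = 2) and cultured (triangles, n = 4) library and a line at each group mean. The cultured libraries lie above both primary libraries for Nrp1, Nrp2, Plxnb2, Plxna2, Plxna3, Sema3c and Sema4b and far below them for Sema3d, at 0.31 to 0.33 against 6.8 and 8.31 FPKM.

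The promoters of 4 of these genes, those of the largest rise, the highest level and the largest falls of abundant ligands, are shown as RefSeq gives them for GRCm38.p6, 250 bases before to 50 after the start on the coding strand. Capitals mark matches, on either strand, to TATAAA for the TATA box, to the letters that name the CCAAT box, to GGGCGG for the GC box, to TGACTCA for the AP-1 site and to CACGTG for the E-box.
Sema3d: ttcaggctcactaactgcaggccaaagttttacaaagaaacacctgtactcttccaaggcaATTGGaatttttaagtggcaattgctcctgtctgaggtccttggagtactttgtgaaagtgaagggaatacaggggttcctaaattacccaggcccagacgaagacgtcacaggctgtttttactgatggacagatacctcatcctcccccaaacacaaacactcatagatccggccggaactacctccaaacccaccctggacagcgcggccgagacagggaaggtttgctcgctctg
Sema3e: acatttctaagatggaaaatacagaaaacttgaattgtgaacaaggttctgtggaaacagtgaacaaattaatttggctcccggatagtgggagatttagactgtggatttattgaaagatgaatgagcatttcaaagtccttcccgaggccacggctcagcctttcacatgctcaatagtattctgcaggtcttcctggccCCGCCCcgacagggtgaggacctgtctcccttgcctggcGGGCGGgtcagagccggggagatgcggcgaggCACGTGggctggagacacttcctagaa
Sema3c: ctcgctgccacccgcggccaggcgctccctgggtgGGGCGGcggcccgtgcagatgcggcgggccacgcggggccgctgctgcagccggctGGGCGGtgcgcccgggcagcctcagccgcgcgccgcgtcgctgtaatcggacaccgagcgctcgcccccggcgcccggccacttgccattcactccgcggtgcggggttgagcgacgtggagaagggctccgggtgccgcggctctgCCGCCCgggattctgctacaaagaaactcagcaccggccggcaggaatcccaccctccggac
Nrp2: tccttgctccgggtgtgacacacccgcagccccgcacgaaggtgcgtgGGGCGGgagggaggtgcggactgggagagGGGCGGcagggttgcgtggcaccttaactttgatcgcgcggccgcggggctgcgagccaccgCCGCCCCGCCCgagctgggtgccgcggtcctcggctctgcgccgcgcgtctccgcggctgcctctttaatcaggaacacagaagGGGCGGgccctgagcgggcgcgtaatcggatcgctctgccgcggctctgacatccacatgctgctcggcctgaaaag

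The Sema3d sequence lies at chr5:12382916-12383215, Sema3e at chr5:14025026-14025325, Sema3c at chr5:17574566-17574865 and Nrp2 at chr1:62703067-62703366, all on the plus strand. The promoters of Nrp2 and Sema3c held 37 and 42 CpG dinucleotides, more than 94.4% and 96.9% of the 32851 promoters in the table, and 5 and 3 GC box matches. Those of Sema3d and Sema3e held 8 and 11 CpG dinucleotides, more than 51.3% and 58.6% of the promoters, with no GC box match in Sema3d and 2 in Sema3e. CpG counts did not divide the other called genes by direction. Those that rose held 14 (Nrp1), 25 (Plxna2), 18 (Plxna3), 27 and 15 (Plxnb2) and 26 and 28 (Sema4b). Those that fell held 23 (Plxnd1), 19 and 30 (Sema4c) and 7 (Sema4f). The single CCAAT box match was in Sema3d and the single E-box match in Sema3e. Promoters were found for 26 of the 31 genes (37 promoters), with Plxna1, Plxna4, Sema3b, Sema3f and Sema6a unmatched, and their median CpG count was 15 beside 7 for all promoters. Of these 37 promoters 27 held a GC box, beside 35.7% of all promoters, 7 a CCAAT box, beside 37.4%, 3 an E-box, beside 7.15%, 2 an AP-1 site, beside 5.20%, and none a TATA box, beside 13.6%. In the 4 sequences shown, 1 pair of GC box matches in Nrp2 overlapped and no match overlapped one of another motif. A match describes letters, not a bound site.

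Nrp2 had the largest rise of the family. This neuropilin, the coreceptor of Sema3F that also binds VEGF-C, stood at 10.21 and 13.87 FPKM in primary and at 52.57, 59.77, 60.44 and 66.33 in cultured MSCs. Every cultured library was far above both primary libraries, and the spread within a group was small beside the gap. The log2 fold change was 2.31 (standard error 0.15, adjusted p = 7.63e-06), and 1.93 with median ratio scaling, which lowers the median of all genes from 0.45 to 0.06. Among all 17457 genes Nrp2 moved from rank 4417 in primary MSCs to rank 1705 in cultured MSCs.

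Nrp1, the coreceptor of Sema3A and of VEGF-A, rose by less. It stood at 11.13 and 12.11 FPKM in primary and at 21.48, 21.2, 19.65 and 21.16 in cultured MSCs, with no overlap and a log2 difference of 0.84 (standard error 0.11, adjusted p = 0.000291). The balance of the neuropilins therefore turned, from near parity to an excess of Nrp2. Nrp1 made up 52.2% and 46.6% of neuropilin FPKM in the primary libraries and 24.2% to 29.0% in the cultured libraries, a difference of -23.4 percentage points (two-sided exact permutation p = 0.0667, the smallest possible). Nrp2 FPKM was 0.917 and 1.15 times Nrp1 FPKM in primary MSCs and 2.45 to 3.13 times in cultured MSCs. In cultured replicate 3, where the macrophage marker sum was lowest at 106 against 270.1 to 335, Nrp1 was at 19.65 and Nrp2 at 60.44 FPKM. Nrp2 was then within the range of the other cultured libraries and Nrp1 was slightly below it. This is a single library, and the part of macrophages in either level was not tested.

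Plxnb2, a receptor of the class 4 semaphorins, was the most abundant plexin of both groups. It stood at 16.79 and 25.56 FPKM in primary and at 38, 40.28, 44.07 and 46.12 in cultured MSCs, which gave a log2 difference of 1.02 (standard error 0.17, adjusted p = 0.00115). It gave 65.7% and 68.3% of plexin FPKM in primary and 70.5% to 76.6% in cultured MSCs. Plxna2, a receptor of Sema6A, was at 1.51 and 0.91 FPKM in primary and at 2.62, 3.2, 2.63 and 3.61 in cultured MSCs. Plxna3, which serves Sema3F together with Nrp2, was at 1.42 and 0.61 FPKM in primary and at 2.49, 2.88, 2.24 and 2.77 in cultured MSCs. Both A-type plexins were higher in every cultured library, with log2 fold changes of 1.28 (adjusted p = 0.00301) and 1.37 (adjusted p = 0.00561), although primary replicate 2 was the lower primary library in both.

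Plxna1 remained the most abundant A-type plexin and did not pass the test. It stood at 3.89 and 8.09 FPKM in primary and at 7.03, 9.13, 7.18 and 7.63 in cultured MSCs, so that primary replicate 2 lay within the cultured range. Its log2 fold change was 0.45 (95% interval -0.19 to 1.09, adjusted p = 0.185), but 0.97 (adjusted p = 0.00405) without primary replicate 2 and -0.07 (adjusted p = 0.749) without primary replicate 1. Plxnd1, which binds Sema3E without a neuropilin, was the only tested receptor that fell, from 1.28 and 1.91 FPKM in primary MSCs to 0.6, 0.73, 0.73 and 0.92 in cultured MSCs. The groups did not overlap, and the log2 fold change was -0.99 (standard error 0.28, adjusted p = 0.0148), losing the call without primary replicate 2 (-0.72, adjusted p = 0.0591). Plxnd1 is also known from endothelial cells. Of their markers, Tek was at 2.71 and 3.7 FPKM in primary and at 0 to 0.22 in cultured libraries, and Pecam1 at 0.18 and 0.62 and at 0.02 to 0.08. Eng was at 22.69 and 34.36 in primary and at 24.23 to 31.89 in cultured libraries, and Erg at 0.9 and 1.99 and at 1.17 to 2.09. Cdh5, at most 0.05 in both groups, was too low to compare. The part of such cells in the fall of Plxnd1 was not tested.

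**Figure D2:**
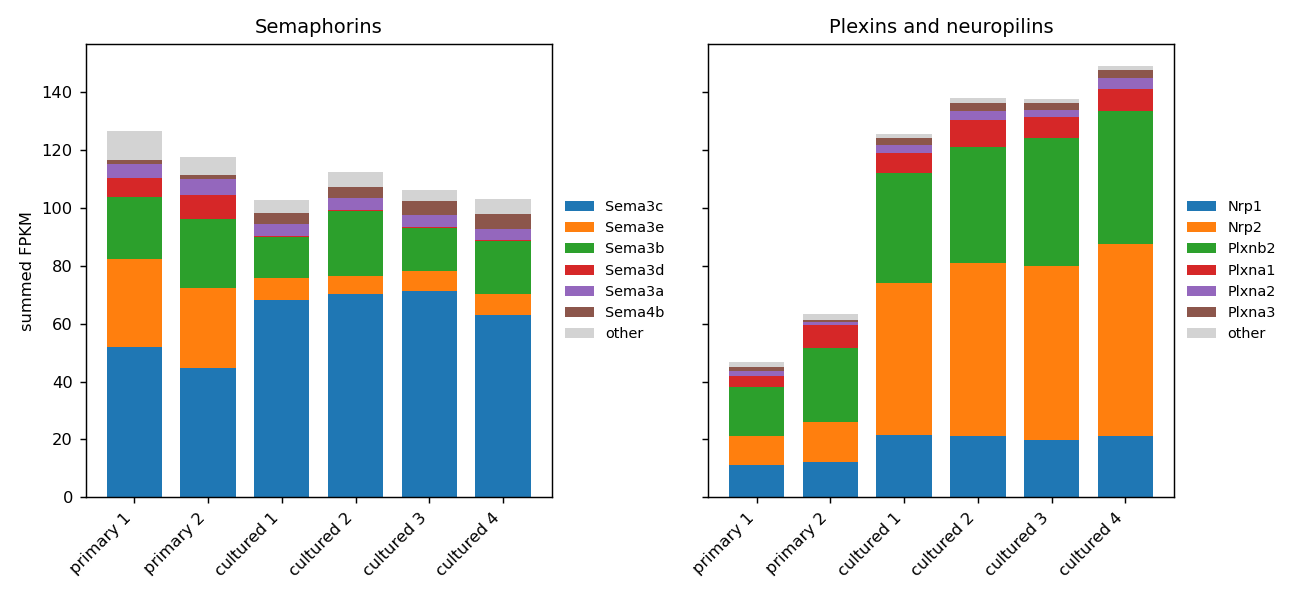
Stacked FPKM of the semaphorins (left) and of the plexins and neuropilins (right) in each library, with the most abundant genes coloured and the rest in grey. The receptor bars stand at 46.9 and 63.4 in primary and at 125 to 149 in cultured MSCs, with Nrp2 and Plxnb2 as the tallest parts in culture, and Sema3c fills 61.1% to 67.1% of the semaphorin bars in cultured MSCs.

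Class 3 ligands made up most of the semaphorin FPKM in both groups, at 93.3% and 94.5% in primary and 90.9% to 93.9% in cultured MSCs, but in different proportions. Sema3c, known from the migration of cardiac neural crest cells, was the most abundant semaphorin throughout, at 52.05 and 44.81 FPKM in primary MSCs and 68.11, 70.32, 71.22 and 62.92 in cultured MSCs. All cultured libraries were above both primary libraries. The log2 difference of 0.49 (standard error 0.10, adjusted p = 0.00362) was close to the median of all genes, and with median ratio scaling it was 0.10 and no longer passed (adjusted p = 0.44). Its share of semaphorin FPKM was 41.1% and 38.1% in primary MSCs and 61.1% to 67.1% in cultured MSCs.

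Sema3d, which guides endothelial and neural crest cells, fell almost to nothing. It stood at 6.8 and 8.31 FPKM in primary and at 0.33, 0.32, 0.33 and 0.31 in cultured MSCs. The mean was 23.4 times higher in primary MSCs, and the log2 fold change was -4.17 (standard error 0.23, adjusted p = 3.77e-06). Its share of semaphorin FPKM went from 5.37% and 7.06% to between 0.285% and 0.321%.

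Sema3e, the vessel-patterning ligand of plexin D1, was the second most abundant semaphorin of primary MSCs and also fell. It stood at 30.21 and 27.51 FPKM in primary and at 7.62, 6.19, 6.93 and 7.5 in cultured MSCs, with a wide gap and a log2 difference of -2.02 (standard error 0.14, adjusted p = 9.55e-06). Its share of semaphorin FPKM was 23.9% and 23.4% in primary and 5.50% to 7.40% in cultured MSCs. Ligand and receptor of this pair both passed the test as lower, Sema3e with means of 28.9 ± 1.91 and 7.06 ± 0.653 FPKM and Plxnd1 with means of 1.59 ± 0.445 and 0.745 ± 0.132 FPKM (SD, n = 2 and 4). Plxnd1, however, met the minimum for testing only through the primary libraries, where it was high. Its call was also lost with replicate number as a block in the limma fit (adjusted p = 0.0648). Replicate numbers are shared by name only, and that estimate rests on the libraries whose number occurs in both groups. The osteoblast and chondrocyte marker sums were also lower in culture, the latter mainly through Comp, while Col2a1 was higher. The part of such cells in these falls was not tested. Between the primary libraries the osteoblast sum was 1410 and 642, the chondrocyte sum 3875 and 5430, Sema3e 30.21 and 27.51 and Sema3d 6.8 and 8.31 FPKM. Of the chondrocyte markers, Comp was at 3574 and 5310 FPKM in these libraries and Col2a1 at 171 and 38.0.

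The other tested class 3 ligands changed less than Sema3d and Sema3e. Sema3a, the ligand of Nrp1, stood at 4.62 and 5.58 FPKM in primary and at 3.9, 4.14, 4.07 and 3.74 in cultured MSCs. The groups did not overlap, but the log2 fold change of -0.35 (95% interval -0.73 to 0.03) did not pass (adjusted p = 0.0922). With median ratio scaling it was -0.73 and passed (adjusted p = 0.00597). Sema3a also passed as TPM (-0.49, adjusted p = 0.0347), with quantile normalization (-0.67, adjusted p = 0.00926) and without the trend in the fit (adjusted p = 0.0483). It did not pass with the other pseudocounts or filters, robust moderation, the replicate block or each cultured library left out. Its log2 fold change was -0.48 without primary replicate 1 and -0.22 without primary replicate 2. Sema3b, a repellent of axons, was at 21.43 and 23.82 FPKM in primary and at 14.38, 22.63, 15.13 and 18.17 in cultured MSCs. Cultured replicate 2 lay between the primary values, and the log2 fold change of -0.38 (95% interval -0.82 to 0.05) did not pass (adjusted p = 0.107). Sema3b passed as lower with median ratio scaling (-0.77, adjusted p = 0.0091), with quantile normalization (-0.79, adjusted p = 0.00746) and without cultured replicate 2 (-0.51, adjusted p = 0.0272). Sema3f, the ligand of Nrp2, was at 3 and 1.17 FPKM in primary and at 1.75, 2.03, 0.85 and 0.96 in cultured MSCs. The groups overlapped, and the log2 fold change was -0.49 (95% interval -1.56 to 0.58, adjusted p = 0.376).

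Class 4 semaphorins went both ways at low levels. Sema4b was at 1.55 and 1.34 FPKM in primary and at 3.98, 3.65, 4.91 and 5.43 in cultured MSCs, above both primary libraries in each, with a log2 difference of 1.56 (standard error 0.22, adjusted p = 0.000424). Sema4c, a ligand of plexin B2, was at 1.68 and 1.57 FPKM in primary and at 0.39, 0.55, 0.77 and 1.17 in cultured MSCs. It did not overlap, and its log2 difference of -1.16 (standard error 0.39, adjusted p = 0.0292) passed narrowly, losing the call with no filter (adjusted p = 0.0523) and without either primary library or without cultured replicate 1 or 2 (adjusted p = 0.0507 to 0.0941, log2 fold changes of -0.95 to -1.21). Sema4f was at 1.85 and 1.13 FPKM in primary and at 0.11, 0.46, 0.13 and 0.22 in cultured MSCs, and fell by 2.34 on the log2 scale (standard error 0.46, adjusted p = 0.00253). Thus the receptor Plxnb2 and the ligand Sema4b rose, while the ligand Sema4c fell.

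**Figure D3:**
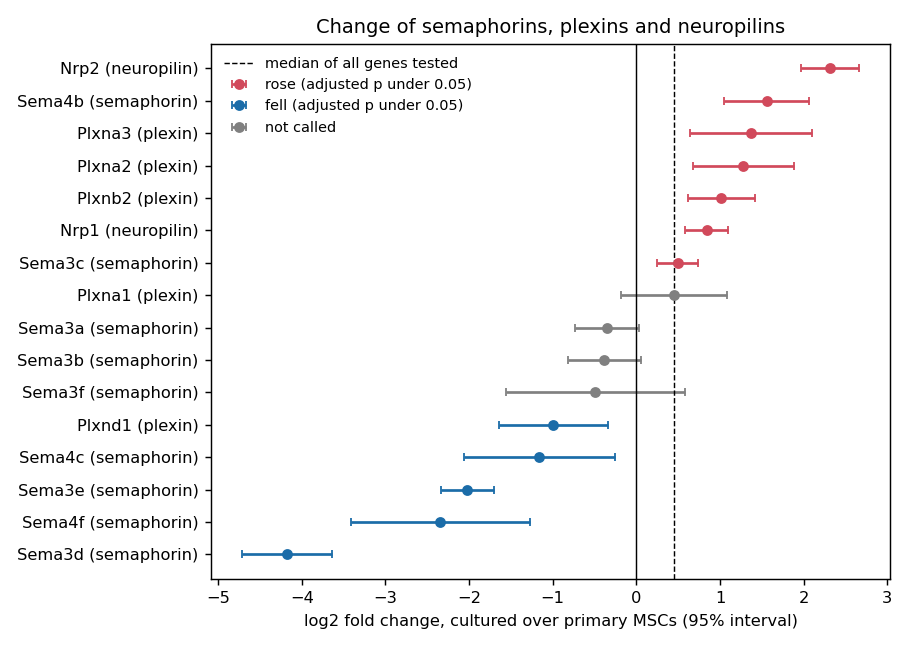
Log2 fold change of each tested gene, cultured over primary MSCs, with its 95% interval from limma and the median of all genes tested (0.45, dashed). The interval of Sema3d runs from -4.71 to -3.63 and that of Nrp2 from 1.97 to 2.66, while those of Plxna1, Sema3a, Sema3b and Sema3f cross 0.

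The remaining 15 genes, 11 semaphorins and 4 plexins, were not tested, and their highest value was 1.14 FPKM, that of Sema5a in primary replicate 1. Sema4d, the class 4 ligand of osteoclasts, was at 0.26 and 0.13 FPKM in primary and at 0.14 to 0.28 in cultured MSCs, and its receptor Plxnb1 was at 0.5 and 0.22 and at 0.15 to 0.35. Both overlapped between the groups. Plxnc1, the receptor of Sema7A, was at 0 in each primary library and at 0.14, 0.15, 0.15 and 0.1 FPKM in the cultured libraries, and in cultured replicate 3, with the lowest macrophage marker sum, it was at 0.15. The part of macrophages in the level of Plxnc1 was not tested. Sema7a itself overlapped, at 0.08 and 0.52 in primary and 0.13 to 0.42 in cultured MSCs.
Plxna4 was at 0.18 and 0.14 FPKM in primary and at 0.29 to 0.38 in cultured MSCs, and Sema6b, a class 6 ligand, at 0.05 and 0.15 and at 0.2 to 0.35. These and Plxnc1 were the untested genes with every cultured value above both primary values. Sema4g was the untested gene with every cultured value lower, at 0.34 and 0.23 in primary and 0.06 to 0.17 in cultured MSCs. How often low genes at large separate in this way was not computed, so these separations are descriptive. Sema4a, Sema5a, Sema6a, Sema6c and Sema6d overlapped, all at or below 1.14 FPKM. Sema3g, which endothelial cells express, Sema5b and Plxnb3 were listed at 0 in each primary library and did not pass 0.14 FPKM in cultured MSCs.

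**Figure D4:**
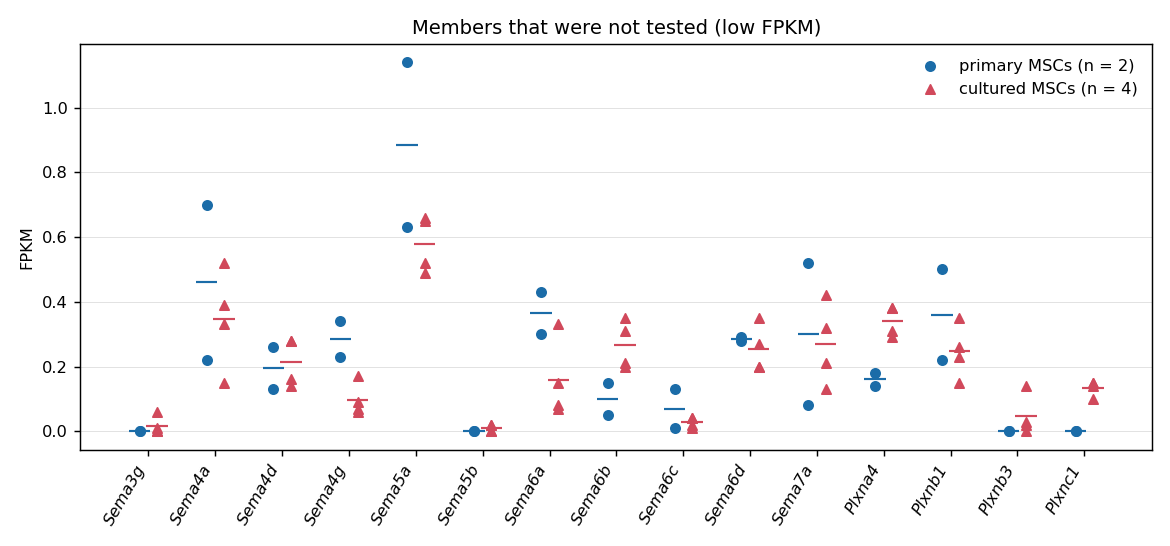
FPKM of the 15 untested genes on a linear axis, with a point for each primary (circles, n = 2) and cultured (triangles, n = 4) library and a line at each group mean. Nearly all values lie under 1 FPKM. Only Plxna4, Plxnc1, Sema6b and Sema4g show no overlap between the groups, and the share of all genes without overlap was not computed.

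Of the class 3 genes 6 lie in a pair of clusters. Sema3d (12383161 to 12588953), Sema3a (13124822 to 13603485), Sema3e (14025276 to 14256689) and Sema3c (17574816 to 17730268) lie in this order within 5.35 Mb of chromosome 5 (GRCm38.p6), and neighbours in this order changed by different amounts, with Sema3d and Sema3e lower, Sema3a between them not called and Sema3c higher. Of the 9 other genes listed in that stretch 2 were tested, the calcium channel subunit Cacna2d1 with a log2 fold change of -0.43 (adjusted p = 0.0822) and the growth factor Hgf with 0.59 (adjusted p = 0.0734), and neither passed. On chromosome 9 Sema3b (107597674 to 107609241) and Sema3f (107681499 to 107710475) lie within 0.113 Mb of each other, and neither passed the test. Gnai2, a G protein subunit between them, had a log2 fold change of 0.04 (adjusted p = 0.787).

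**Figure D5:**
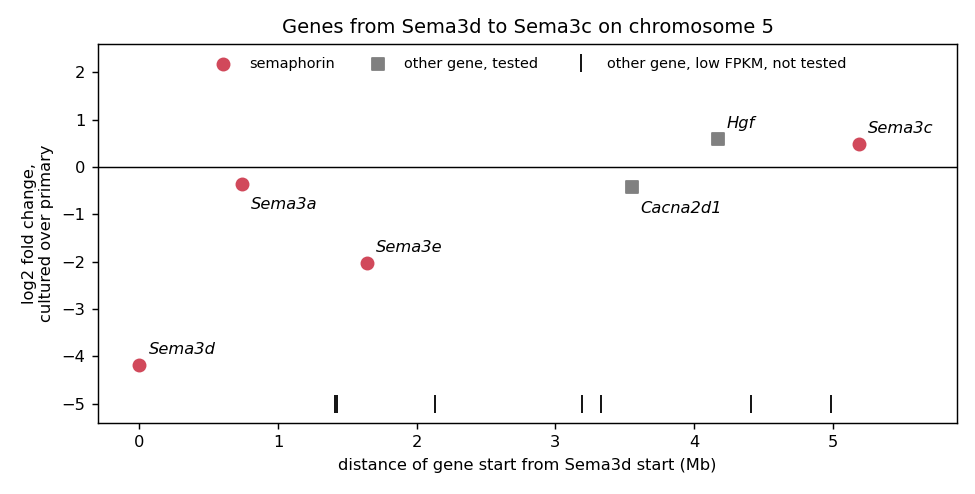
Log2 fold change, cultured over primary MSCs, of the genes from Sema3d to Sema3c on chromosome 5 against the distance of each gene start from that of Sema3d, with untested genes as ticks. Sema3d (-4.17) and Sema3e (-2.02) stand below the other tested genes of the stretch, which lie between -0.43 and 0.59.

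Other genes of the pathway, 57 partners of semaphorins, plexins and neuropilins listed by role, changed about as often as all genes did. Of the 49 tested, 24 rose (48.1% of all genes did) and 10 fell (17.6% of all genes did), with a median log2 fold change of 0.48 beside 0.45. Among other receptors and coreceptors 7 of 9 tested rose and none fell, but 4 of the 7 were under 1 FPKM in each primary library and so passed the minimum only through the group where they were high. The same held for 1 other partner that rose and 1 that fell, and these counts are descriptive. Nrcam, an adhesion molecule that joins Nrp2 in the receptor of Sema3F, went from 0.15 and 0.22 FPKM in primary MSCs to 8.59 to 13.09 in cultured MSCs (log2 fold change 5.25, adjusted p = 1.00e-06). Tyrobp, an adaptor of plexin A1 in osteoclasts and dendritic cells that is also a macrophage marker, went from 0.1 and 0.09 FPKM to between 5 and 15.22, with 5 in cultured replicate 3.
Of the 5 other neuropilin ligands 2 rose, 2 fell and Vegfa did not pass. Vegfd went from 6.51 and 7.48 FPKM in primary MSCs to 26.09 to 27.92 in cultured MSCs (log2 fold change 1.95) and Vegfb from 0.67 and 2.03 to 2.29 to 3.86 (1.34, adjusted p = 0.0209), the latter losing its call with median ratio scaling (adjusted p = 0.0774) and without primary replicate 1 or cultured replicate 3 or 4 (0.0512 to 0.141). Vegfc, a ligand of Nrp2, fell from 3.63 and 5.88 FPKM to 0.33 to 0.79 (-2.99), and the placental growth factor Pgf from 10.94 and 6.81 to 1.7 to 2.36 (-2.02).
Of 15 GTPases and exchange factors 8 rose and 1 fell. Rras2, a Ras-related GTPase, rose from 0.56 and 0.77 FPKM to between 6.85 and 9.28, and Rac1 from 38.23 and 35.51 to 92.0 in cultured replicate 1 and 257 to 327 in the others. Arhgef12, which links B-type plexins to RhoA, fell from 3.53 and 3.14 FPKM to between 1.51 and 1.97.
Of 16 tested kinases and cytoskeletal effectors 6 rose and 6 fell. The kinases Pak1 and Fes rose, with log2 fold changes of 2.99 and 1.12. The kinase Fyn and the collapsin response mediator Dpysl3, both on the Sema3A pathway of axons, fell, Fyn from 7.76 and 8.81 FPKM to 1.95 to 2.89 and Dpysl3 from 59.24 and 65.04 to 17.58 to 21.25. Among the proteases that cleave semaphorins, Adam10 rose from 15.59 and 16.57 FPKM to between 34 and 35.68, while Furin, which processes class 3 semaphorins, fell from 7.46 and 7.77 FPKM to between 3.9 and 4.18. With median ratio scaling 18 partners rose and 17 fell, beside 30.9% and 27.4% of all genes.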

How the data were processed

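Sorted murine MSCs were profiled by RNA sequencing (SMART-Seq v4, 4 cultured and 2 primary libraries). Per the labels and the methods, the authors used HISAT2 2.0.4 for the genome (GRCm38.p6) and Bowtie2 2.2.5 for reference genes, estimated gene levels with RSEM 1.2.8 and deposited FPKM values with 2 decimals. The deposited table also holds 1 column of log2 fold changes that the authors computed with DESeq2, which was not used. It gives no counts, so depth per value is unknown.
A gene entered the comparison if 2 or more libraries held 1 FPKM or more, and the fit was made with limma 3.58.1 (R 4.3.3) on log2(FPKM + 0.1), which understates changes of low genes, with a trend and without covariates. Adjusted p values are Benjamini-Hochberg over all 11405 genes. Fits were tested on simulated data. Exact permutation tests were used for the semaphorin sum, the sum of plexins and neuropilins and the Nrp1 share, and the other sums and shares were only described. Named genes are all members, the 2 largest called rises and falls of each partner role, and the sort markers. Cdh5, Tek, Eng, Erg, Ctsk, Comp, Col2a1, Cacna2d1, Hgf and Gnai2 were chosen after their values were seen. The partner and marker lists came from general knowledge, and members and lists were chosen with earlier results of these data known. Gene IDs matched RefSeq (GRCm38.p6) for all 31 members. Alternatives were pseudocounts of 0.01 and 1, other filters, median ratio, TPM and quantile scaling, other moderation, a replicate block, and each library left out with the tested genes kept. Figures used Python 3.11.15 and matplotlib 3.10.9.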

Additional observations from a re-analysis of the deposited data

Results flagged for a closer look

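Among the 4 cultured libraries, Sema3g stood apart in replicate 4, at 0.06 FPKM against 0 to 0.01 in the others, a gap of 0.833 of the range, above the limit of Dixon's test. It was 1 of 34 quantities looked at, of which chance alone would mark about 1 in 20. At 2 decimals this value lies near the lowest step of the table.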

How the results depend on the processing

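Over 255 pairs of a tested member and an alternative, 234 kept both direction and call, 9 lost and 9 gained a call and 3 changed sign. Members called in every alternative in which they were fitted numbered 9, of which Sema4f was not fitted with the filter on the mean. Rises numbered 6 to 9 under alternatives that kept both primary libraries, where 30.9% to 48.7% of all genes rose. Falls numbered 4 to 7 under alternatives that kept all libraries, where 14.0% to 27.4% of all genes fell. With each cultured library left out they numbered 4 to 5, beside 15.7% to 17.1% of all genes. Past both thresholds no gene was higher with median ratio scaling or quantile normalization (0 against 1), where Nrp2 had log2 fold changes of 1.93 and 1.92, and 1 gene was lower with a pseudocount of 1, with 3 in the reported fit and 1 (without primary replicate 1) to 3 with each library left out. With each library left out Plxna1 ranged from -0.0702 (without primary replicate 1) to 0.9673 and Sema3f from -1.135 to 0.1523 (without primary replicate 1), and Sema3f was 0.000641 with the replicate block. Partners that fell numbered 17 with median ratio scaling and 17 with quantile normalization, against 10, while the share of all genes that fell went from 17.6% to 27.4% and 26.6%. The difference of the semaphorin sums, -16.0, was -49.0 with median ratio scaling and -45.6 as TPM, and that of the receptor sums, 82.5, was 59.2 and 123. The TPM values are in another unit, so their sizes cannot be compared with those in FPKM. The Nrp1 share differed by -20.6 to -26.2 percentage points with each library left out. Without a filter Plxnc1 and Plxna4 passed as higher and Sema4g as lower. Of the 16845 genes in that fit 34.6% rose and 14.3% fell.

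Replicate numbers are shared by name only, and deviations of same-numbered libraries correlated at 0.12 and 0.05. With the replicate block 7 members rose and 4 fell, beside 40.3% and 14.0% of all genes, and Plxnd1 lost its call (adjusted p = 0.0648). Of the partners 21 rose and 8 fell, against 24 and 10 in the reported fit. The named partners that lost their call were Arhgef12 (-0.87, adjusted p = 0.0782) and Vegfb (1.05, adjusted p = 0.105). Low FPKM values at 2 decimals limit what can be said of the untested members.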
